A study of Rattus norvegicus with 20 samples.

Results

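The genes examined here are 9 markers of deep-layer cortical neurons, *Bcl11b*, *Fezf2*, *Tle4*, *Foxp1*, *Foxp2*, *Tbr1*, *Nr4a2*, *Etv1* and *Crym*, chosen by symbol from the 31038 named genes of the count matrix. All 9 are in the matrix and all 9 passed the filter on low counts (5 or more reads in 10 or more libraries), which left 16605 genes for testing. The RNA came from the medial prefrontal cortex (mPFC) of 20 male Sprague-Dawley rats, with 1 library per rat. Treatment began at 6 to 8 weeks of age, and 10 rats were given LSD at 0.16 mg/kg on alternate days over 90 days while 10 rats were given sterile saline on the same schedule (Saline). The tissue was taken after 3 weeks without injections, and all rats were housed singly. The age and interval are those of the labels, and the methods of the study give a higher age and a longer interval. LSD, lysergic acid diethylamide, is a psychedelic drug that acts on serotonin receptors.

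The excitatory neurons of the cortex are arranged in layers. Many, but not all, of those in the deep layers V and VI send their axons out of the cortex, to the brainstem, spinal cord, striatum and thalamus. The identity of deep-layer neurons is set by transcription factors that repress one another. *Fezf2* and its downstream partner *Bcl11b* (Ctip2) specify the layer V neurons that project below the cortex, and *Tbr1* specifies the layer VI neurons that project to the thalamus and represses *Fezf2*. Layer V pyramidal neurons of the mPFC carry much of the cortical 5-HT2A receptor, the main target of LSD. In the adult, these genes remain expressed and serve as markers of the cells, but several are also found elsewhere: *Bcl11b*, *Foxp1* and *Foxp2* are strong in the striatum, which lies under the mPFC. In bulk tissue, fewer cells of a type and less RNA per cell cannot be told apart.

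Promoter sequence from RefSeq (rat build GRCr8) was found for 6 of the 9 genes, *Fezf2*, *Tle4*, *Foxp1*, *Tbr1*, *Nr4a2* and *Etv1*. Sequence is shown for *Etv1*, the 1 gene that passed the test between the groups, and for *Tle4* and *Tbr1*, the pair whose levels varied together most closely among rats. The 250 bases before the start of *Tle4* are printed whole, and 30 bases that hold a motif are printed for the other two. Capitals mark a match on either strand to TATAAA (the TATA box), CCAAT (the CCAAT box), GGGCGG (the GC box), TGACGTCA (the CRE, bound by CREB), TAATTA (a homeodomain core) or CAGCTG (an E-box).
*Tle4*, chr1:221222827-221223076, minus strand: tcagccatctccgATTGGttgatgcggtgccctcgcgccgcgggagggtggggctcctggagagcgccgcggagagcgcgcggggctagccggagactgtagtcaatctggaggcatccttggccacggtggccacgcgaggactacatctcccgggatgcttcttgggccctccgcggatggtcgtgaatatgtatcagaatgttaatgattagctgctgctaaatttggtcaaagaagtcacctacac
*Tbr1*, chr3:66759765-66759794, plus strand: tatccTAATTAatgtctatcTAATTAaatt
*Etv1*, chr6:61317325-61317354, plus strand: tgtgaagcccCCGCCCCGCCCctctctggc
The *Etv1* stretch lies 75 to 104 bases before the start site and holds 2 overlapping copies of GGGCGG on the opposite strand, and 30.5% of all 33469 promoter windows of 250 bases hold at least 1 copy on either strand. The *Tbr1* stretch lies 9 to 38 bases before the start and holds 2 copies of TAATTA, of which at least 1 is in 4.86% of the windows. The single marked match in *Tle4* is CCAAT on the opposite strand, which is in 34.0% of the windows. These matches describe the letters of the windows alone, and the counts do not bear on binding.

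The depth, as reads assigned to genes, was 16346629 to 25552681 with LSD and 11098076 to 24201351 with saline. Levels are given as RPM, reads scaled to library size with TMM factors, which are not divided by gene length and so were not compared between genes. *Slc17a7*, the vesicular glutamate transporter of cortical excitatory neurons, was between 1583 and 2637 RPM in the 20 libraries. The striatal list of 14 genes was summed in each library, and 4 libraries stood apart, LSD rat 9 and Saline rats 2, 8 and 9. Their summed striatal level was between 1025 and 1536 RPM, against 627 to 904 RPM in the other 16, and *Adora2a*, the adenosine receptor of indirect pathway striatal neurons, was between 28.7 and 44.6 RPM in them and between 5.34 and 13.7 RPM in the others. The same 4 libraries also had the highest summed level of the 6 oligodendrocyte genes, between 5761 and 7479 RPM, followed by Saline rat 3 at 5366 RPM. None of the 14 striatal genes was at 0. Results are therefore also given without these 4 libraries where the call differs. Across 14271 tested genes with a known genomic span, the log2 fold change rose with span (Spearman's rho = 0.36 across genes, which are not independent replicates). Comparisons were for this reason repeated with offsets that remove the trend with span in each rat and are centred in it, after which rho was 0.050.

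Of the 9 deep-layer markers, 1 was higher in LSD-treated rats and none was lower, at an adjusted p under 0.05. The gene that rose was *Etv1*, a layer V transcription factor. The quasi-likelihood F test of edgeR was used, adjusted by Benjamini-Hochberg over all 16605 genes, of which 15% passed, 6.48% higher and 8.54% lower. The share among the markers, 11.1%, is near this background. DESeq2 also called 1 marker higher and 0 lower, where 20% of all genes passed (8.75% higher and 11.2% lower). At an unadjusted p under 0.05, 1 marker was higher and 2 were lower, the latter being *Bcl11b* and *Crym*. The share of all genes at this unadjusted cut is not given here. Counts at it, for the markers and for the lists below, therefore have no background and are not comparable with the 15%. The median log2 fold change of the 9 genes was -0.017, against 0.0022 over all genes tested. With the span offsets, *Etv1* no longer passed and *Bcl11b* was called lower instead, where 10.3% of all genes passed (3.64% higher and 6.62% lower). Without the 4 libraries high in *Adora2a*, again 1 marker was higher, *Etv1*, and 0 were lower, where 20.9% of all genes passed (10.5% higher and 10.4% lower).

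**Figure D1:**
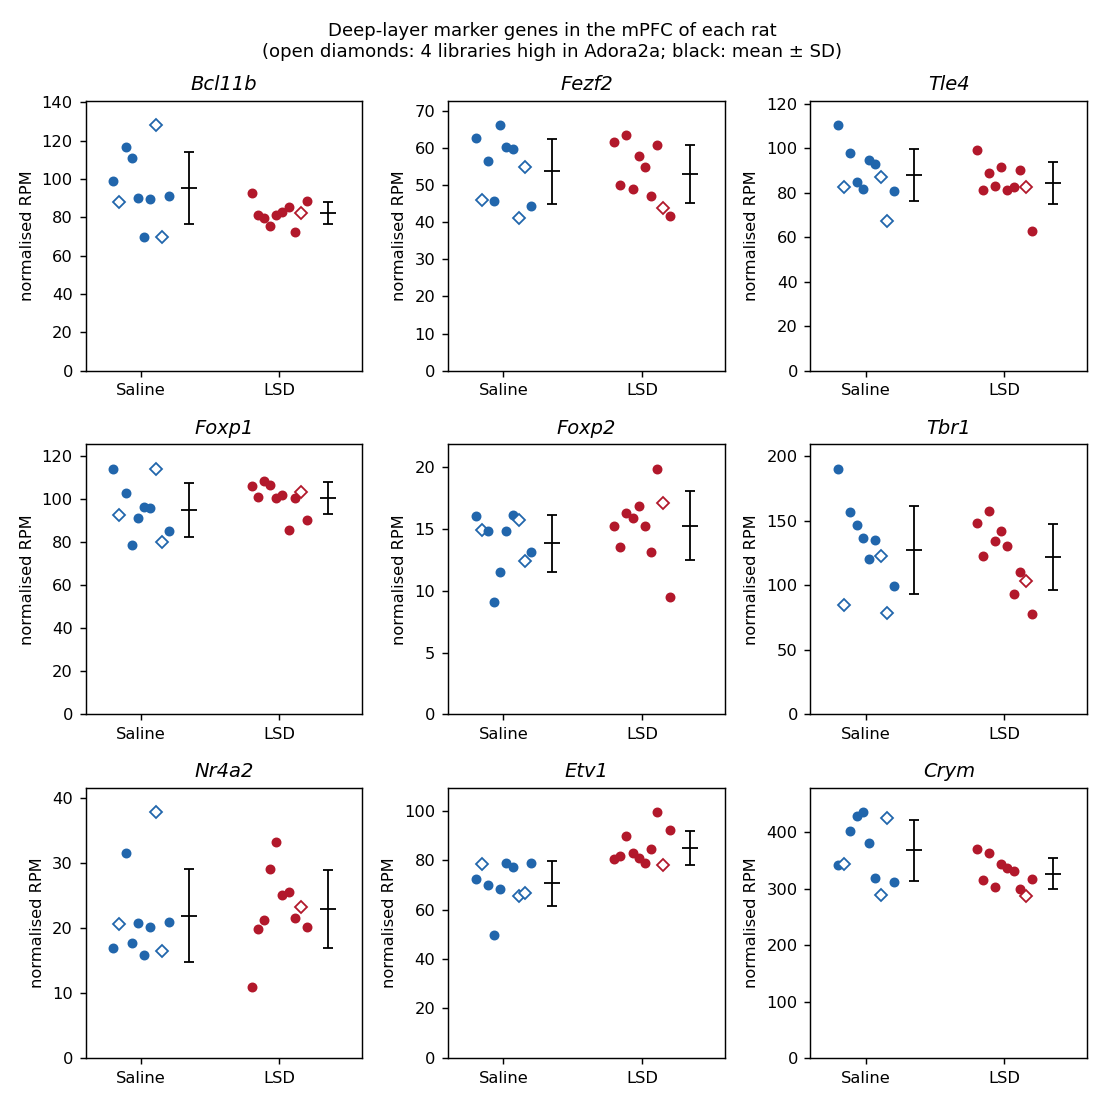
Level of each of the 9 deep-layer markers in each rat (normalised RPM, linear axis from 0), with Saline in blue and LSD in red, the mean and SD of the 10 rats in black, and the 4 libraries high in the striatal gene Adora2a as open diamonds. For Etv1, 9 of the 10 LSD-treated rats lie above the highest Saline rat, at 78.7 RPM, while the groups overlap widely for the other 8 genes.

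*Etv1* (Er81) is an ETS family transcription factor that marks layer V pyramidal neurons and is also found in some fast-spiking interneurons. Its lowest, median and highest values were 78.0, 82.1 and 99.3 RPM in LSD-treated rats and 49.7, 71.2 and 78.7 RPM in Saline rats. Every one of the 10 LSD values exceeded the Saline median, which was so for 8.27% of the tested genes, and 9 exceeded the highest Saline value. The mean was 84.8 ± 6.83 RPM (SD, n = 10) with LSD and 70.6 ± 8.99 RPM (SD, n = 10) with saline, from 701 to 2514 reads per rat. *Etv1* was 20.1% higher in LSD-treated rats, with a log2 fold change of 0.26 (standard error 0.069, 95% interval from 0.12 to 0.41, edgeR adjusted p = 0.0157). It stayed past the threshold with each of the 20 rats left out in turn, with log2 fold changes from 0.22 to 0.28, and without the 4 libraries high in *Adora2a* (0.27, edgeR adjusted p = 0.0214). The span of *Etv1* is as long as or longer than that of 83.0% of the tested genes, and with the span offsets its log2 fold change was 0.19 (edgeR adjusted p = 0.0641).

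*Bcl11b*, the zinc finger factor of layer V neurons that project below the cortex, had a lowest, median and highest value of 72.6, 81.8 and 92.9 RPM with LSD and of 69.7, 90.7 and 128 RPM with saline. The LSD-treated rats lay close together in the lower part of the Saline range. Only LSD rat 1 was above the Saline median, 4 Saline rats were above every LSD-treated rat and 2 were below every one. The highest values were in Saline rats 8, 3 and 4, of which rat 8 is also among the 4 libraries high in *Adora2a*. The means were 82.3 ± 5.86 RPM (SD, n = 10) and 95.3 ± 18.9 RPM (SD, n = 10), and the log2 fold change of -0.21 (standard error 0.090, 95% interval from -0.40 to -0.026) did not pass the threshold (edgeR adjusted p = 0.109). It passed with the span offsets (-0.29, edgeR adjusted p = 0.0366) and when Saline rat 6 (-0.25, edgeR adjusted p = 0.0461) or Saline rat 9 (-0.25, edgeR adjusted p = 0.049) was left out. The log2 fold change was again -0.21 without the 4 libraries high in *Adora2a* (edgeR adjusted p = 0.0731). The coefficient of variation of *Bcl11b* was 7.12% in LSD-treated rats and 19.8% in Saline rats, and without these 4 libraries 7.55% and 16.3%.

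*Fezf2*, the zinc finger factor that acts upstream of *Bcl11b*, ranged from 41.6 to 63.5 RPM with LSD (median 52.5) and from 41.1 to 66.0 RPM with saline (median 55.6). The ranges were nearly the same, and 4 of the 10 LSD values exceeded the Saline median. Its log2 fold change of -0.017 (standard error 0.094) had a 95% interval from -0.21 to 0.18, which corresponds to a difference between -13.6% and 13.0% (edgeR adjusted p = 0.927). *Crym*, which encodes mu-crystallin, a cytosolic thyroid hormone binding protein found in layer V and VI neurons and in striatal neurons, ranged from 287 to 371 RPM with LSD (median 325) and from 289 to 435 RPM with saline (median 363). In 5 Saline rats *Crym* was above its level in any LSD-treated rat, and 2 of the 10 LSD values exceeded the Saline median. The log2 fold change of -0.17 (standard error 0.075, 95% interval from -0.33 to -0.016) did not pass the threshold (edgeR adjusted p = 0.121), nor did it with any rat left out or in any alternative that was run.

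Among the genes of layer VI, *Tbr1* encodes the T-box factor of neurons that project to the thalamus. It was between 78.0 and 158 RPM with LSD (median 127) and between 78.4 and 190 RPM with saline (median 129), and 5 of the 10 LSD values exceeded the Saline median. Its log2 fold change was -0.060 (standard error 0.14, edgeR adjusted p = 0.821), and the 95% interval from -0.36 to 0.24 leaves room for a difference between -21.8% and 17.7%. *Tle4*, a corepressor of the Groucho family that marks the same neurons, was between 62.6 and 99.4 RPM with LSD (median 82.7) and between 67.2 and 110 RPM with saline (median 86.0). LSD rat 10 was lowest of all 20, at 62.6 RPM, and the groups otherwise overlapped throughout. The log2 fold change of *Tle4* was -0.061 (standard error 0.077, 95% interval from -0.22 to 0.099, edgeR adjusted p = 0.639).

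*Foxp2*, the forkhead factor of layer VI neurons known for its role in speech, rested on the fewest reads of the 9, with 124 to 503 per rat. It was between 9.48 and 19.9 RPM with LSD (median 15.6) and between 9.07 and 16.1 RPM with saline (median 14.8), and 4 LSD-treated rats were above every Saline rat. Its log2 fold change of 0.14 (standard error 0.11, 95% interval from -0.094 to 0.37) did not pass the threshold (edgeR adjusted p = 0.433). *Foxp1*, a related forkhead factor that is found in the middle layers as well, was between 85.4 and 109 RPM with LSD (median 101) and between 78.7 and 114 RPM with saline (median 94.2). Its log2 fold change was 0.079 (standard error 0.067, 95% interval from -0.058 to 0.22, edgeR adjusted p = 0.448). These are the longest of the 9 genes, with spans at or above those of 98.9% (*Foxp2*) and 99.1% (*Foxp1*) of the tested genes. With the span offsets the log2 fold changes were 0.013 for *Foxp2* (edgeR adjusted p = 0.956) and -0.043 for *Foxp1* (edgeR adjusted p = 0.669), so that the sign of *Foxp1* depends on this correction.

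*Nr4a2* (Nurr1), an orphan nuclear receptor, marks layer VIb and claustrum neurons in the cortex and is also an immediate early gene, switched on by neuronal activity. It varied more among rats than any other marker, from 10.9 to 33.3 RPM with LSD (median 22.3) and from 15.8 to 37.8 RPM with saline (median 20.4). The extremes were LSD rat 1, the lowest, and Saline rat 8, the highest, and the groups overlapped. The log2 fold change of 0.072 (standard error 0.17, 95% interval from -0.27 to 0.42) did not pass the threshold (edgeR adjusted p = 0.814). Among 10 other immediate early genes, 0 passed in either direction by edgeR or by DESeq2 and 0 had an unadjusted p under 0.05. Their log2 fold changes were all positive, with a median of 0.18. *Arc* had a mean of 422 ± 137 RPM (SD, n = 10) with LSD and 391 ± 165 RPM (SD, n = 10) with saline, and *Egr1* of 258 ± 45.7 and 229 ± 67.3 RPM.

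**Figure D2:**
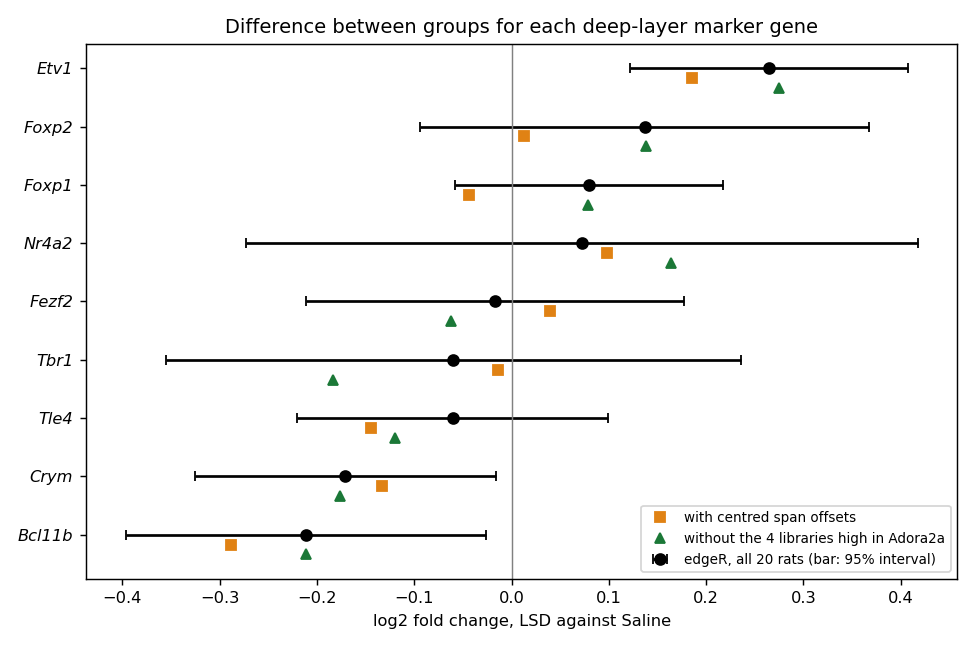
Log2 fold change of each marker, LSD against Saline, by edgeR in all 20 rats with its 95% interval (black), with centred span offsets (orange squares) and without the 4 libraries high in Adora2a (green triangles). Etv1 has the highest value, 0.26, and Bcl11b the lowest, -0.21, and the offsets move Foxp1 and Fezf2 across 0.

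The pair *Fezf2* and *Tbr1*, whose products oppose each other in layers V and VI, was compared as a ratio within each rat. The log2 ratio of *Fezf2* over *Tbr1*, from values with 1 RPM added, ran from -1.43 to -0.86 in LSD-treated rats and from -1.66 to -0.51 in Saline rats. The LSD values lay within the Saline range, with Saline rat 9 the highest and Saline rat 4 the lowest of all 20. The mean was -1.17 ± 0.19 (SD, n = 10) with LSD and -1.20 ± 0.37 (SD, n = 10) with saline, a difference of 0.029 (two-sided permutation test with 100000 resamples, p = 0.832).

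Spread among rats was smaller with LSD for 8 of the 9 markers, *Foxp2* being the exception. The same was so for 77.5% of all tested genes, whose median coefficient of variation was 12.4% in LSD-treated rats and 16.3% in Saline rats. Without the 4 libraries high in *Adora2a*, 5 of the 9 markers and 57.8% of the tested genes had the smaller spread with LSD. These counts are a description and were not tested.

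Differences among rats of the same group were then used to ask which markers varied together. Pearson's r was computed on log2(RPM + 1) over the 20 rats after the mean of each group was removed, for all 36 pairs of markers, with p-values from 100000 permutations within groups and adjustment over the 36 pairs. In 5 pairs the adjusted p was under 0.05, and all 5 were positive and lay among *Tle4*, *Tbr1*, *Foxp1* and *Foxp2*. How many pairs of other genes would pass was not computed, and the ranks of these pairs among other genes are given below. *Tle4* and *Tbr1*, both markers of layer VI, had the highest, with r = 0.81 (adjusted permutation p = 0.00144) and Spearman's rho = 0.66 (adjusted permutation p = 0.0299). Within LSD-treated rats r was 0.77 and within Saline rats 0.83, and neither passed after adjustment over the 36 pairs (adjusted permutation p = 0.0607 and 0.0968). Without the 2 rats farthest from the median of *Tbr1* it was 0.67 (adjusted permutation p = 0.105), and with the span offsets 0.77 (adjusted permutation p = 0.00216).

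The forkhead genes *Foxp1* and *Foxp2* had r = 0.69 (adjusted permutation p = 0.00954) and rho = 0.62 (adjusted permutation p = 0.0465). Within LSD-treated rats r was 0.62, within Saline rats 0.78 and without the 2 rats farthest from the median of *Foxp2* 0.60. None of these passed (adjusted permutation p = 0.240, 0.0968 and 0.105). With the span offsets r was 0.61 (adjusted permutation p = 0.0458). The 3 other pairs were weaker under the span offsets. *Tle4* with *Foxp1* had r = 0.67 and rho = 0.73 (adjusted permutation p = 0.0235 and 0.0299), *Tle4* with *Foxp2* 0.65 and 0.66 (adjusted permutation p = 0.0438 and 0.0299) and *Foxp1* with *Tbr1* 0.62 and 0.59 (adjusted permutation p = 0.0462 and 0.0632). With the offsets r fell to 0.49, 0.55 and 0.41 (adjusted permutation p = 0.152, 0.112 and 0.295). The 2 rats farthest from the median of the second gene named were also left out, chosen anew for each pair, and r was then 0.64, 0.56 and 0.49. With 18 rats left in each pair in this way, none of the 36 pairs, *Tle4* with *Tbr1* included, passed after adjustment (lowest adjusted permutation p = 0.105). In the 16 rats left without the 4 libraries high in *Adora2a*, 9 pairs passed. The 5 pairs above had r from 0.70 to 0.77 (adjusted permutation p = 0.0176), and *Fezf2* joined them, with r = 0.70 with *Tle4*, 0.70 with *Foxp1*, 0.68 with *Foxp2* and 0.66 with *Tbr1* (adjusted permutation p = 0.0176, 0.0210, 0.0249 and 0.0318). Over all 20 rats the same 4 pairs had r of 0.55, 0.29, 0.38 and 0.57 and did not pass. *Bcl11b* and *Fezf2*, the layer V genes that act in 1 pathway in development, had r = -0.35 and rho = -0.32, and *Bcl11b* and *Etv1* had the lowest r of all pairs, -0.43 (rho = -0.49). Neither passed after adjustment. With the span offsets over all 20 rats, *Fezf2* and *Tle4* also passed, with r = 0.64 (adjusted permutation p = 0.0452, against r = 0.55, rho = 0.54 and an adjusted permutation p of 0.0771 without them). Without offsets, this was the only pair to pass within a group, with r = 0.80 within LSD-treated rats (adjusted permutation p = 0.0360). Within Saline rats its r was 0.34 (adjusted permutation p = 0.581).

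**Figure D3:**
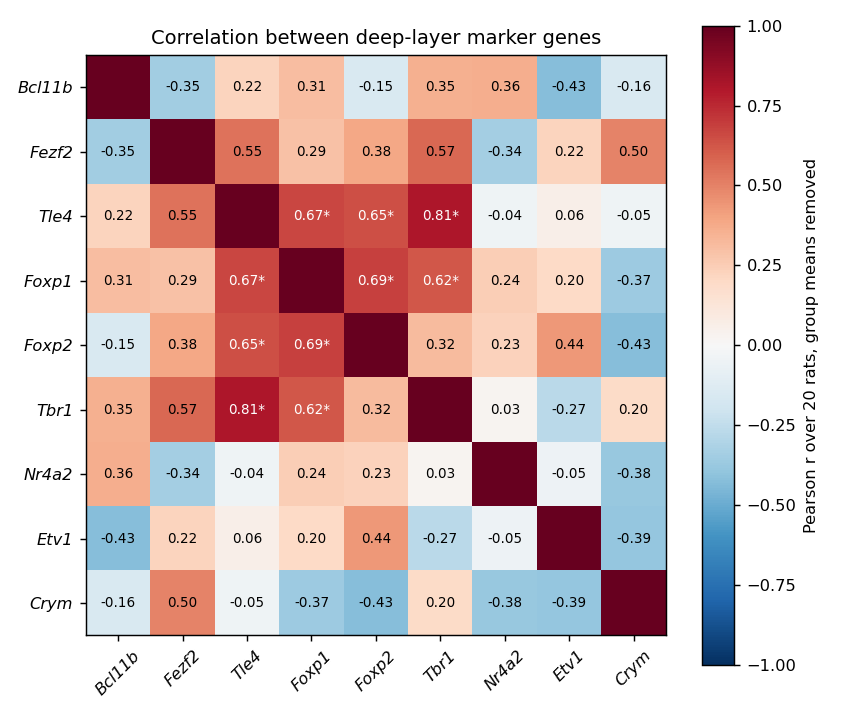
Pearson's r between each pair of the 9 markers over 20 rats, from log2(RPM + 1) with group means removed; asterisks mark the 5 pairs with an adjusted permutation p under 0.05 over 36 pairs. The asterisks all lie in the block of Tle4, Foxp1, Foxp2 and Tbr1, where Tle4 and Tbr1 have r = 0.81.

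For each marker, the 2 genes whose level followed it most closely among the 20 rats were named, by the same r among 11415 other genes with a mean of at least 5 RPM. These values were selected as the highest of many and are a description. *Fezf2* was followed by *Ldb2*, a LIM domain binding factor known as a marker of layer V (r = 0.91), and *Shf* (0.90). *Etv1* was followed by *Mbnl2*, an RNA-binding splicing regulator (0.92), and *Spred1*, an inhibitor of the Ras pathway (0.89). *Tbr1* was followed by *Cacna1a*, the P/Q-type calcium channel subunit (0.97), and *Ptprs*, a receptor tyrosine phosphatase of synapses (0.97). Seen from *Tle4*, *Tbr1* ranked 51 of the 11415 genes, and seen from *Tbr1*, *Tle4* ranked 839. *Tle4* was followed by *Etl4* (0.91) and the guidance molecule gene *Sema5a* (0.90), *Foxp1* by *Dcc*, the netrin receptor (0.88), and *Sel1l3* (0.87), *Foxp2* by the protocadherin gene *Pcdh9* (0.87) and RGD1563349 (0.86), and *Crym* by *Ehbp1l1* (0.90) and RGD1359127 (0.89). *Bcl11b* and *Nr4a2* had the weakest nearest genes, *Tmem132e* (0.82) and *Hmbox1* (0.80) for *Bcl11b* and *Cdc7* (0.82) and *Cwc25* (0.80) for *Nr4a2*. Among these 18 genes, 6 passed the test between the groups, where 15% of all tested genes did. *Mbnl2* (log2 fold change 0.26), *Spred1* (0.20) and *Cwc25* (0.27) rose, and *Tmem132e* (-0.37), *Ehbp1l1* (-0.15) and RGD1359127 (-0.27) fell, with edgeR adjusted p-values from 0.0114 to 0.0415.

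A list of 30 other genes of deep-layer neurons had 29 members tested, of which 1 was higher, 1 was lower and 27 did not pass. *Rxfp1*, the relaxin receptor, was 7.88 ± 0.823 RPM (SD, n = 10) with LSD and 5.83 ± 1.12 RPM (SD, n = 10) with saline (log2 fold change 0.43, standard error 0.10, edgeR adjusted p = 0.00903). *Rgs12*, a regulator of G protein signalling, was 95.7 ± 8.24 and 110.0 ± 12.3 RPM (log2 fold change -0.20, standard error 0.064, edgeR adjusted p = 0.0372). The share called was 6.90%, beside 15% of all genes, and the median log2 fold change was 0.0000014. With 1 rat left out, no gene of the list was lower in 10 of 20 cases, so that *Rgs12* lost its call there, and 1 or 2 genes were higher. Scaling libraries by total counts gave 0 lower and 3 higher, and omitting the filter gave 0 lower and 1 higher. DESeq2 called 3 genes higher and 1 lower. Without the 4 libraries high in *Adora2a*, *Chn2*, which encodes a Rac GTPase-activating protein, was also higher (0.34, against 0.16 in all rats, edgeR adjusted p = 0.0283). In the upper-layer list of 15 genes, 1 rose, *Rorb*, the nuclear receptor of layer IV (57.2 ± 5.20 against 48.5 ± 4.80 RPM, log2 fold change 0.24, edgeR adjusted p = 0.0156), and the median log2 fold change was 0.084. This list had 6.67% of its genes called, beside the same 15% of all genes. *Rorb* did not pass with the span offsets (0.14, edgeR adjusted p = 0.0788). With those 4 libraries left out, 2 upper-layer genes were higher, *Rorb* and *Calb1* (0.25, edgeR adjusted p = 0.0366), and 2 were lower, the transcription factor genes *Pou3f3* (-0.25, edgeR adjusted p = 0.0232) and *Lhx2* (-0.23, edgeR adjusted p = 0.0280). Scaling by total counts gave 4 higher. Of 5 general markers of excitatory neurons, 0 passed in either direction by edgeR or DESeq2 and 1 was lower at an unadjusted p under 0.05. Their median log2 fold change was -0.049.

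The list of layer VIb and claustrum genes, which share the expression of *Nr4a2*, had 7 members, of which 6 had a negative log2 fold change, with a median of -0.33. By edgeR 1 fell, *Nxph4*, which encodes a secreted ligand of neurexins (5.49 ± 2.15 against 8.78 ± 1.52 RPM, log2 fold change -0.67, standard error 0.18, adjusted p = 0.0175). *Ntng2*, which encodes the synaptic adhesion protein netrin-G2, had 58.1 ± 9.44 and 73.0 ± 16.0 RPM (log2 fold change -0.33, edgeR adjusted p = 0.0549). The share called by edgeR was 14.3%, beside 15% of all genes. At an unadjusted p under 0.05, for which no share of all genes is given, 5 of the 7 were lower and 0 were higher. DESeq2 called 2 lower. With the span offsets 2 genes of this list were lower, and 3 were without the 4 libraries high in *Adora2a*, where 20.9% of all genes passed. *Nr4a2* had a positive log2 fold change by edgeR in all rats, with the offsets and without those libraries, of 0.072, 0.098 and 0.16.

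Genes of other cells that the dissected tissue could hold were counted in the same way. All 14 striatal genes had a negative log2 fold change, with a median of -0.50, and 2 passed, *Gpr6*, an orphan receptor of striatal neurons (3.28 ± 2.56 against 7.68 ± 6.41 RPM, log2 fold change -1.24, edgeR adjusted p = 0.0394), and *Adcy5*, the striatal adenylyl cyclase (297 ± 26.2 against 363 ± 76.1 RPM, log2 fold change -0.29, edgeR adjusted p = 0.0358). The share called among the striatal genes was 14.3%, beside 15% of all genes. At an unadjusted p under 0.05, for which no share of all genes is given, 11 of the 14 were lower and 0 were higher. *Gpr6* did not pass with the span offsets (-1.16, edgeR adjusted p = 0.0630). The summed striatal level was between 627 and 1025 RPM with LSD (median 675) and between 687 and 1536 RPM with saline (median 801). Without the 4 libraries high in *Adora2a* the median log2 fold change was -0.20 and 3 of the 14 genes were lower, where 20.9% of all genes passed. *Adora2a*, by whose level the libraries were left out, is itself 1 of these 3, so its call there is not independent of that choice. The count of 2 depended on single rats. It was 9 without LSD rat 9, 5 without Saline rat 10, and 1 in 6 and 0 in 6 of the other cases. Across the 20 rats, with group means removed, none of the 9 markers had an adjusted permutation p under 0.05 for its correlation with the summed striatal level. This held for r and for rho. The r ran from -0.42 (*Fezf2*, rho = -0.27) to 0.39 (*Nr4a2*, rho = 0.41), with a lowest adjusted permutation p of 0.441. *Etv1* had the largest rho in size, -0.54 (permutation p = 0.0196, adjusted 0.176), with r = -0.25. Within groups its rho was -0.89 with LSD and -0.58 with saline, and these rho values were not tested. The r of *Etv1* within groups was -0.55 with LSD (permutation p = 0.104, adjusted 0.769) and -0.16 with saline (permutation p = 0.655, adjusted 0.655). For *Bcl11b* r was 0.25 and rho 0.22 (permutation p = 0.412, adjusted 0.464). In the 16 rats left without the 4 libraries, *Tbr1* passed (r = 0.67, adjusted permutation p = 0.0373, against -0.26 over all 20), while *Bcl11b* (0.63) and *Tle4* (0.53) had an adjusted permutation p of 0.105.

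**Figure D4:**
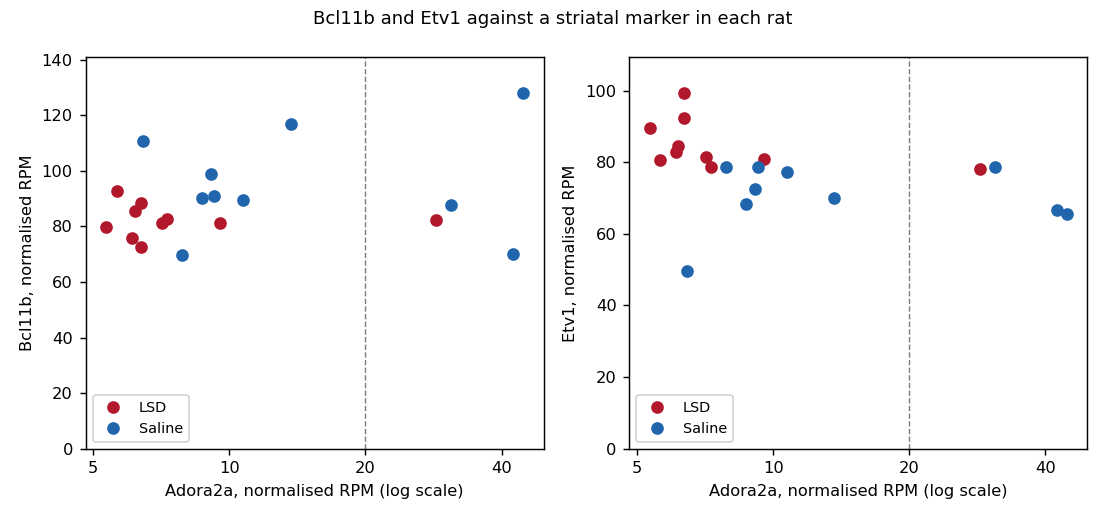
Bcl11b (left) and Etv1 (right) against the striatal gene Adora2a in each rat (normalised RPM, log scale for Adora2a), with Saline in blue and LSD in red. The dashed line at 20 RPM parts the 4 libraries high in Adora2a, whose Bcl11b spans nearly the whole Saline range, from 70.0 to 128 RPM.

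Of 8 markers of inhibitory neurons, 4 passed, a share of 50% beside 15% of all genes. *Gad2*, a GABA-synthesising enzyme, and *Vip*, the neuropeptide of an interneuron class, rose (log2 fold changes 0.23 and 0.27, edgeR adjusted p = 0.0369 and 0.0486), and *Slc32a1*, the vesicular GABA transporter, and *Sst*, the peptide somatostatin, fell (log2 fold changes -0.34 and -0.28, edgeR adjusted p = 0.0180 and 0.0222). Neither *Gad2* nor *Sst* passed with the span offsets (0.17 and -0.19, edgeR adjusted p = 0.0887 and 0.0992), and *Sst* did not without the 4 libraries high in *Adora2a* (-0.19, edgeR adjusted p = 0.0960). With 1 rat left out, neither *Gad2* nor *Vip* passed in 9 of 20 cases and 1 gene of the list was higher in 7, while 2 were lower in all 20. Of the 6 oligodendrocyte genes all had a negative log2 fold change (median -0.35), and 0 passed by edgeR, 1 was called lower by DESeq2 and 3 were lower at an unadjusted p under 0.05. Their summed level was between 2232 and 5761 RPM with LSD and between 2195 and 7479 RPM with saline, and without the 4 libraries high in *Adora2a* the median log2 fold change was -0.14. Of 6 astrocyte genes 1 rose, a share of 16.7% beside 15% of all genes. It was the glutamate transporter gene *Slc1a2* (log2 fold change 0.41, edgeR adjusted p = 0.0423), which did not pass with the span offsets (0.33, edgeR adjusted p = 0.0760) or without those 4 libraries (0.28, edgeR adjusted p = 0.0665). By edgeR 0 of 6 microglial and 0 of 5 endothelial genes passed, at an unadjusted p under 0.05 these counts were 0 and 1, and by DESeq2 0 and 1. The microglial receptor gene *P2ry12* was higher (0.29, edgeR adjusted p = 0.00927) and the tight junction gene *Cldn5* lower (-0.22, edgeR adjusted p = 0.0158) without those 4 libraries. The part of these other cells in the values of the deep-layer markers was not tested.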

How the data were processed

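RNA was poly(A)-selected. Per the methods and labels, reads went through TrimGalore, Hisat2 (rn6) and HTSeq-count, and the deposited values are raw counts that the authors had not normalised. Versions, annotation and strand setting are not given in the sources used here, so that reads of a gene and of an antisense partner may not be separated. The last 5 rows have no name, hold between 25.5% and 29.0% of each column's total and were left out. No pair of libraries was identical. Nothing states how rats with the same number were handled.

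Genes reaching 5 reads in 10 or more libraries were tested with edgeR 4.0.16 in R 4.3.3 (TMM, quasi-likelihood F test, Benjamini-Hochberg adjustment over all tested genes, threshold 0.05). The step was tested on simulated data. Permutations used numpy 2.4.6 and scipy 1.17.1. For the span offsets, genes were ordered by GRCr8 span in 50 bins, and each rat's mean log2(RPM + 1) deviation per bin was smoothed over 5 bins and centred at the rat's median. Spans matched 85.9% of tested genes by symbol, and genes without one had an offset of 0. Alternatives were DESeq2 1.42.0, other scalings and filters, the replicate number as a block, reads drawn down to the smallest library and each rat left out. Leaving out the 4 libraries with over 20 RPM of *Adora2a* was chosen after seeing the data.

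The 9 genes, the lists and the tests were chosen with earlier results of these data known. Named genes are the 9 markers, the 2 genes most like each marker and, from each neuronal list, those past the threshold (at most 4, by p) or else the most abundant. Glial and vascular lists are given by counts. *Slc1a2*, *Chn2*, *Calb1*, *Pou3f3*, *Lhx2*, *P2ry12* and *Cldn5* were named after their values were seen. A planned ratio is not reported here.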

Additional observations from a re-analysis of the deposited data

Results flagged for a closer look

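Within each group of 10 rats, the lowest or highest value was compared with its nearest neighbour, for the 9 markers and the ratio of *Fezf2* over *Tbr1*, 20 groups of values in all, of which chance alone marks about 1 in 20. In 2 of them the gap divided by the whole range was above the critical value of Dixon's test at 95%. *Etv1* in Saline rat 4 was 49.7 RPM, with the next lowest at 65.5 RPM (gap over range 0.546), and without this rat the log2 fold change of *Etv1* was 0.22 and still past the threshold. *Tle4* in LSD rat 10 was 62.6 RPM, with the next lowest at 81.4 RPM (gap over range 0.511), and without this rat the log2 fold change of *Tle4* was -0.016.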

How the results depend on the processing

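Over 270 repeats of the 9 markers' tests, 248 kept the direction and the side of the threshold. With the span offsets 605 genes were higher and 1100 lower in all, 0 markers were higher and 1, *Bcl11b*, was lower, and with the replicate block as well 0 markers passed, where 12.7% of all genes did. Scaling by total counts left 858 genes lower against 1504 higher and moved the median over all genes from 0.0022 to 0.047 on the log2 scale, and omitting the filter left 836 lower. Without the 4 libraries high in *Adora2a*, 1701 genes were higher. With each rat left out, between 663 and 1669 genes were higher and between 957 and 1907 lower, the extremes coming without LSD rat 8 (663 higher), Saline rat 4 (705 higher and 957 lower) and Saline rat 2 (1669 higher and 1907 lower), and 1 marker was higher and 0 to 1 lower. Signs turned where values were near 0. *Fezf2* was 0.00048 without the filter, 0.027 by total counts, 0.039 with the span offsets and 0.039 with the block as well, and up to 0.021 with a rat left out (from -0.054). *Foxp1* was -0.043 with the span offsets and -0.039 with the block as well. *Tbr1* was 0.0021 with both and between -0.12 and 0.023 with a rat left out, and *Nr4a2* between -0.00074 and 0.20. The difference in the ratio of *Fezf2* over *Tbr1* ran from -0.023 to 0.11. The causes were not tested.

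Profiles of rats with the same number correlated by -0.26 to 0.47 and over 0.1 in 6 of 10 pairs. Their mean r was 0.145, against -0.016 for rats with different numbers. The best match in the other group had the same number for 1 LSD-treated rat and 2 Saline rats. Whether the replicate numbers pair the rats is not stated in the sources and was not tested. The replicate block gave 2961 called genes against 2494, 9 striatal genes lower against 2 and 3 immediate early genes higher against 0, and changed no call of a marker, with *Etv1* at 0.27 (edgeR adjusted p = 0.0167).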
